A study of Mus musculus with 48 samples.

Results

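Brain of wild-type C57BL/6 mice was compared between day 15.5 of gestation (E15.5) and day 42 after birth (P42), the young adult, by RNA-seq and by Ribo-seq. The comparison rests on the 8 brain libraries of the 48 in the series, which were picked by their labels of tissue, stage and assay alone. Frozen tissue was lysed in the presence of cycloheximide, which holds ribosomes on the messenger. Each stage and assay has 2 libraries, which the series describes as biological replicates, and the labels name no treatment, sex, limits of the dissection or pooling of animals. The other 40 libraries hold retina, heart, kidney, liver and lung of the same strain and stages, and served to estimate the spread between replicates and to set the brain change beside that of other organs. RNA-seq of polyadenylated RNA follows the number of messenger molecules, and Ribo-seq follows the number of ribosomes on them through the short fragments (footprints) that a ribosome shields from nuclease. Levels are TPM, in which reads are corrected for gene length and scaled to a fixed total within each library, for 22055 listed genes. The stages were deposited in separate tables, so stage and table cannot be told apart. TPM keeps no read total, so how deeply each library was read, and the counting error that follows, cannot be given.

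At the embryonic stage the forebrain is in the middle of neurogenesis. Radial glia line the ventricles and divide, intermediate progenitors add to their output, and newborn neurons migrate outward, extend axons and begin to express receptors. Most synapses form after birth, astrocytes and oligodendrocytes multiply and mature then, and myelin sheaths, adult ion channels and the adult extracellular matrix come in as circuits begin to fire in their mature pattern. In whole tissue a gene's level depends both on how many cells make it and on how much each makes, so fewer cells of a type and less RNA per cell cannot be told apart here.

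Within an assay and stage the 2 libraries correlated across genes at 0.996 (E15.5) and 0.994 (P42) by mRNA and at 0.955 and 0.995 by footprint, so the E15.5 footprint pair was the least alike. Listed genes held 84.0% to 87.9% of the TPM total in the brain RNA-seq libraries and 29.6% to 40.4% in the brain Ribo-seq libraries. Mitochondrially encoded genes took 5.05% and 5.48% of the total by mRNA at E15.5 against 17.4% and 18.8% at P42, and the share of the 10 highest genes in the listed sum went from 7.97% and 7.54% to 22.3% and 20.8%. Because TPM values share a fixed sum, each call was repeated under 4 other scalings. The label of a neural tissue was borne out by 12 genes of neurons in general, which summed to 6428 and 6362 TPM by mRNA at E15.5 and 5864 and 6524 TPM at P42. Such genes cannot tell brain from retina. By mRNA 5 of the 12 were called higher and 4 lower at P42, or 6 and 2 under the median-of-ratios scaling.

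Genes of the hindbrain and spinal cord, of the choroid plexus and of the thalamus set single libraries apart, which bears on the results. The 39 listed Hox genes, which mark hindbrain and spinal cord, summed to 186 and 27.1 TPM in the E15.5 RNA-seq libraries and 25.8 and 6.37 TPM in the E15.5 Ribo-seq ones, and 7 of the 10 genes that were at least 2 log2 higher in the first RNA-seq library were Hox genes. At P42 their sum was 1.02 and 1.04 TPM by mRNA, with no member at 1 TPM. A set of 14 midbrain and hindbrain factors summed to 239 and 208 TPM by mRNA and 16.7 and 54.3 TPM by footprint at E15.5, against 4.34 and 8.62 TPM and 2.24 and 1.78 TPM at P42. En1, a factor of the midbrain and hindbrain border, had 23.9 and 21.4 TPM by mRNA at E15.5 but 0 and 8.66 TPM by footprint. By footprint the sum of the 14 factors was thus lower in E15.5 replicate 1 than in replicate 2, and the Hox sum was higher. Only 1 of the 39 Hox genes reached 1 TPM in each of these footprint libraries, so the Hox sums rest on few genes. At P42 the choroid plexus gene Ttr stood at 4079 and 141 TPM in the 2 RNA-seq libraries, and 4 thalamic genes summed to 14.9 and 88.4 TPM. These sets were assembled after their values were seen. For genes of these regions, stage and regional content cannot be told apart. Named changes and list counts that rest on 1 library are given with and without it below.

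**Figure D1:**
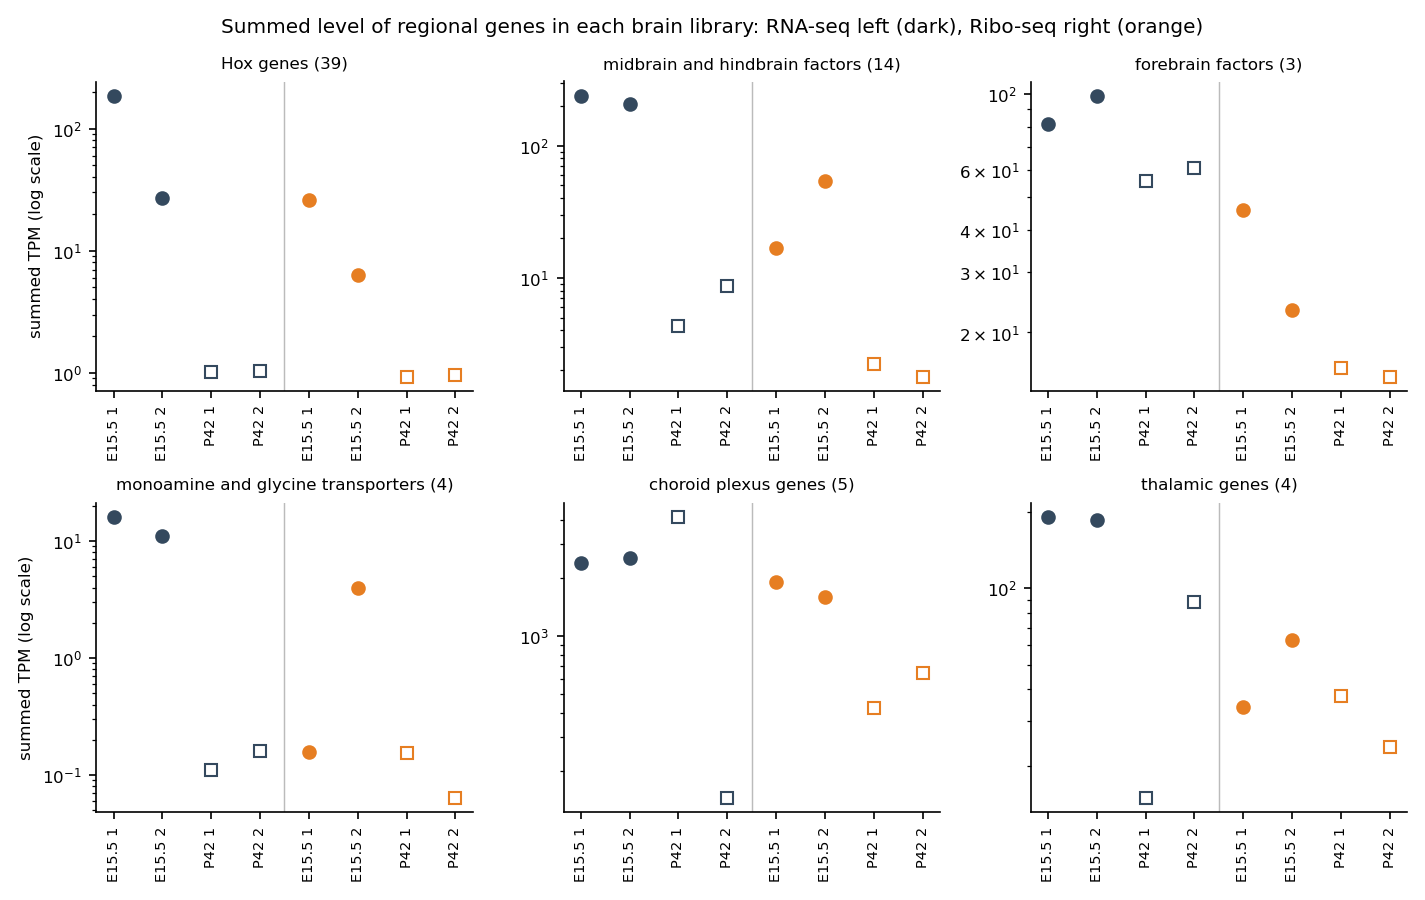
Summed level (TPM, log axis) of 6 sets of regional genes in each of the 8 brain libraries, with filled circles for E15.5 and open squares for P42, RNA-seq on the left and Ribo-seq on the right of each panel. The number of genes in a set is in brackets. The 39 Hox genes sum to 186 and 27.1 TPM in the E15.5 RNA-seq libraries and to 1.02 and 1.04 TPM at P42, and the midbrain and hindbrain factors sum to 16.7 TPM in E15.5 footprint replicate 1 against 54.3 TPM in replicate 2.

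By mRNA and by footprint, most genes of embryonic progenitors, neuronal migration and growth cones fell, and most genes of myelin, astrocytes, microglia and potassium channels rose. Receptor, calcium channel and synaptic vesicle genes rose in larger shares by footprint than by mRNA on the deposited scale, a difference that was not tested. A gene was called when its change in log2(TPM + 1) was at least 1 in size with an adjusted p below 0.05 in a limma model over the 24 libraries of an assay, and "rose" and "fell" are used for called genes only. By mRNA 1697 of 14449 tested genes rose (11.7%) and 5205 fell (36.0%). By footprint 2690 of 13312 rose (20.2%) and 2357 fell (17.7%). The surplus of falls by mRNA depends on the scaling: the median tested gene had a log2 change of -0.60 on the deposited scale and 0.09 after median-of-ratios scaling, which gave 3243 rises and 2217 falls, and list counts that this shift moves by over 1.5 times are given with it. By mRNA 1610 rises and 2198 falls were called under all 5 scalings. By footprint the median was -0.01, with 2339 rises and 1893 falls under all 5. Of 12954 genes tested in both assays, 1271 rose in both (9.81%) and 1922 fell in both (14.8%), and 64 were called in opposite directions (0.494%). At a log2 change of at least 3, 282 genes rose and 370 fell by mRNA and 381 rose and 220 fell by footprint, and all of these but 1 footprint rise were called under all 5 scalings.

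**Figure D2:**
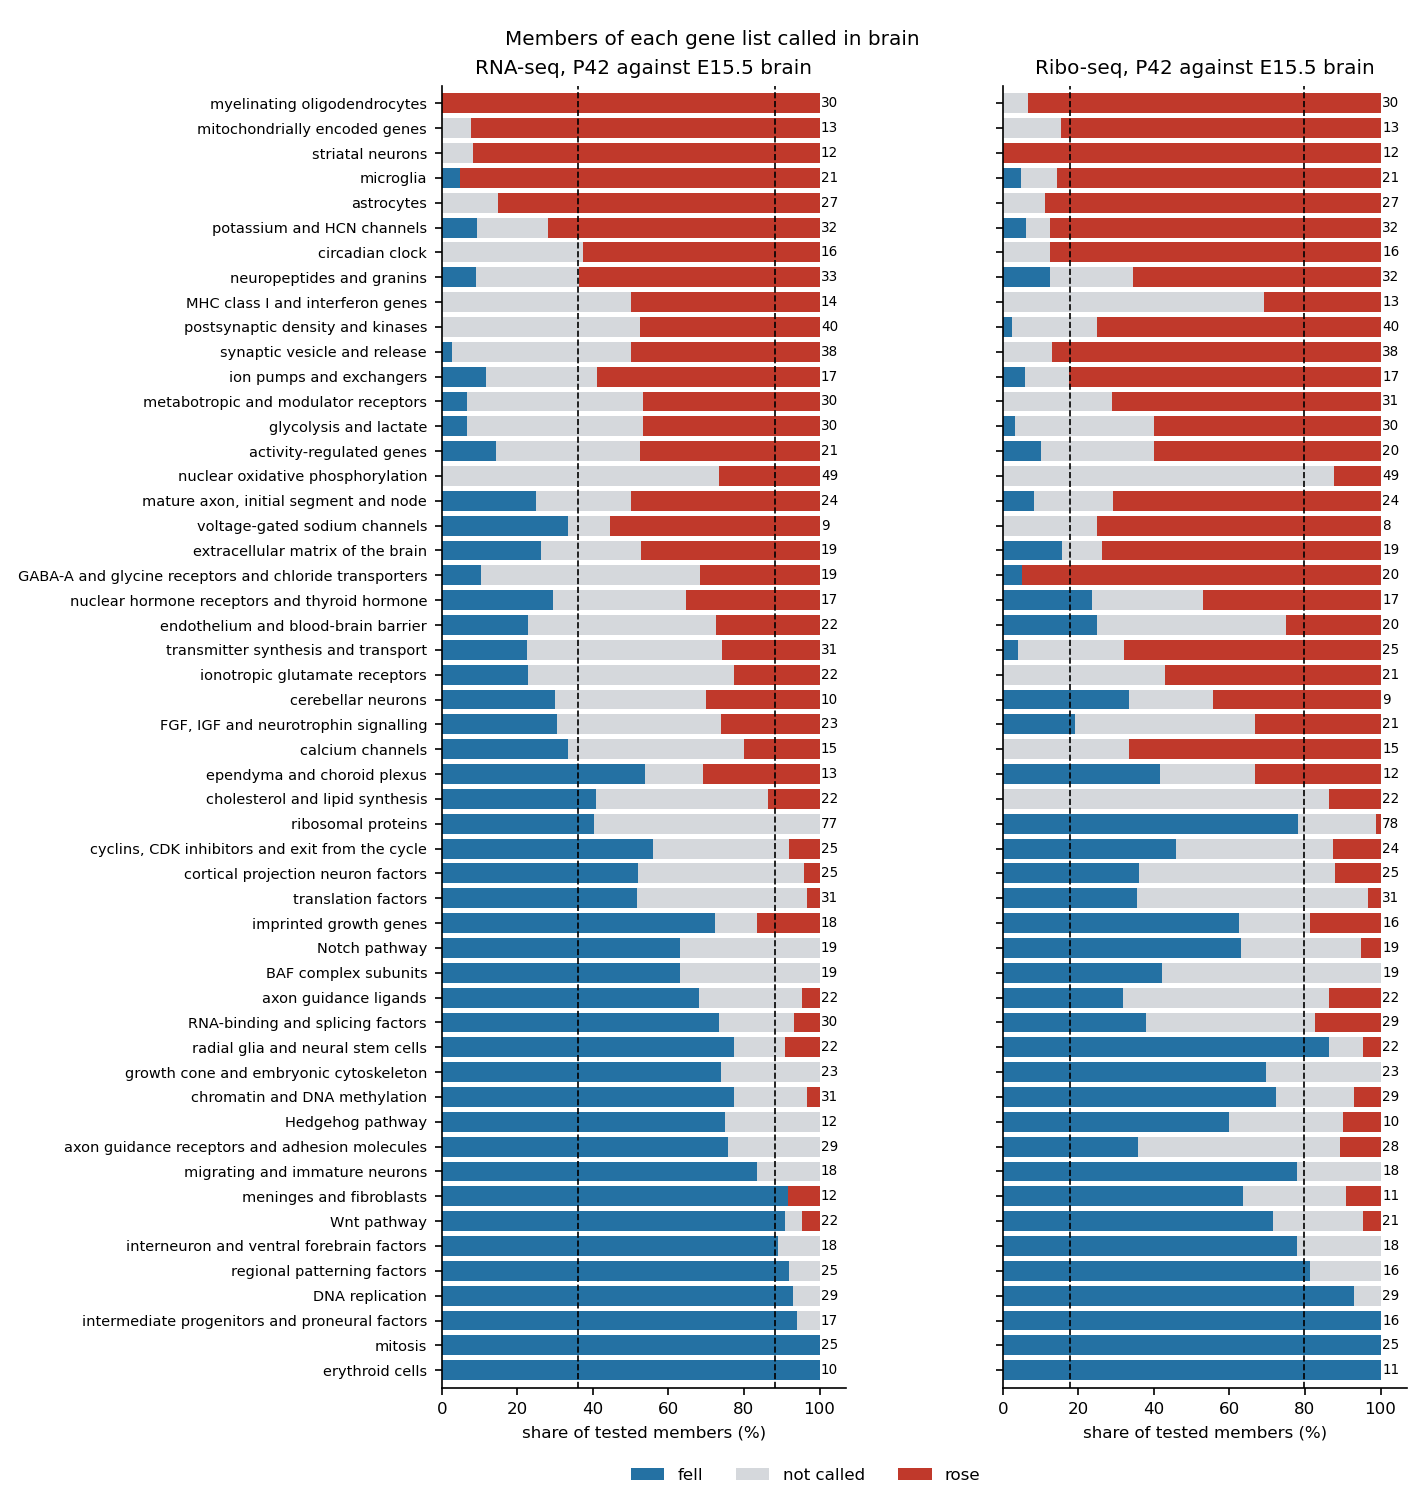
Share of the tested members of each gene list that fell (blue), rose (red) or were not called (grey) in P42 against E15.5 brain, by RNA-seq on the left and Ribo-seq on the right, with the number tested beside each bar. Dashed lines mark the share of all tested genes that fell (36.0% and 17.7%, from the left) and rose (11.7% and 20.2%, from the right). All 25 mitosis genes fell and all 30 myelin genes rose by mRNA.

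The 12 largest rises by mRNA among genes called in both assays ran from 6.23 to 8.87 on the log2 scale and included Mobp, Nrgn, Gpr37l1, Fam107a, Itpka, Mal, Ddn, Scn4b, Mag, Mbp and Gfap, mostly genes of myelin, astrocytes and dendrites. The 12 largest falls ran from -5.72 to -6.97 and belonged to Igfbpl1, Gpc2, Cd24a, Draxin, Dcx, Mex3a, Sox11, St8sia2, Eomes, Dpysl3, Tfap2b and Trim67, mostly genes of newborn neurons. By footprint the 8 largest rises added Mog of myelin, Lamp5 of interneurons and Gm21954, an unnamed locus, and the 8 largest falls added Sox4, Hba-a1 and Hba-a2. The highest levels changed too. Outside the mitochondrial genome, the 10 highest genes by mRNA included Nnat, Eef1a1, Ptma and Gm20721 at E15.5 and Fth1 and Nrgn at P42. By footprint they included Hist2h2bb, Actb, Tubb3, Tmsb4x, Tubb5 and Tubb2b at E15.5 and Sparcl1, Calm2, Snurf and Cpe at P42. Exons of Mobp, Ddn, Gpc2, Mex3a, Eomes, Trim67, Gm21954, Sox4, Nnat, Eef1a1, Gm20721, Hist2h2bb and Snurf overlap another annotated gene, so part of their signal may belong to that gene, since the strand used in counting is not given in the sources used here.

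Changes below are log2 differences, P42 minus E15.5, of log2(TPM + 1). For low genes this scale understates the change. The lists are those of a whole pathway or cell type, and their counts are to be read beside the shares of all tested genes that rose and fell. Standard errors of the called changes named here lay between 0.109 and 0.471 by mRNA and between 0.0910 and 0.685 by footprint. Their largest adjusted p from limma was 0.00013 by mRNA and 0.0137 by footprint. In 168 of 168 of them by mRNA and 154 of 155 by footprint the TPM of both libraries of one stage lay above those of the other, the exception being the footprints of Tfap2b. A call already asks for a large change beside the spread, so this separation follows largely from the selection and adds no further support.

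Genes of dividing cells fell throughout. Of the genes of mitosis, 25 of 25 tested members fell by mRNA and 25 of 25 by footprint, with medians of -3.84 and -3.39, where the medians of all tested genes were -0.60 and -0.01. Mki67, the proliferation antigen, stood at 44.5 and 51.6 TPM at E15.5 and 1.24 and 0.811 TPM at P42 by mRNA and at 32.8 and 54 TPM at E15.5 and 1.96 and 1.37 TPM at P42 by footprint. Neither assay's stages overlapped, and Mki67 fell (log2 change -4.60 by mRNA and -4.02 by footprint). Cdk1, the kinase that starts mitosis, had 22.5 and 26.8 TPM at E15.5 and 0.680 and 0.519 TPM at P42 by mRNA and fell (log2 change -4.0 by mRNA and -4.21 by footprint). Its partner cyclin Ccnb2 had 44.5 and 46.5 TPM at E15.5 and 0.961 and 1.54 TPM at P42 by mRNA and fell (log2 change -4.38 by mRNA and -3.79 by footprint). The smallest fall of the list was that of Mad2l1 of the spindle checkpoint, at -1.72 by mRNA and -1.06 by footprint, the latter not called under every scaling. Mad2l1 had a footprint change of -0.87, not called, without E15.5 footprint replicate 1.

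DNA replication genes followed, with 27 of 29 members lower by mRNA and 27 of 29 by footprint. The 6 subunits of the MCM helicase, which opens the double helix ahead of the fork, all fell, with log2 changes by mRNA from -2.44 (Mcm4) to -3.47 (Mcm3), and -3.45 for Mcm6. The ribonucleotide reductase subunit Rrm2 had 69.5 and 81.3 TPM at E15.5 and 2.92 and 2.70 TPM at P42 by mRNA and fell (log2 change -4.32 by mRNA and -4.49 by footprint). Uhrf1, which carries DNA methylation over to the new strand, fell (log2 change -4.17 by mRNA and -3.98 by footprint). The exceptions by mRNA were Rfc5 of the clamp loader and the nucleotide hydrolase Dut, with changes of 0.32 and -0.95 that were not called. Among cell cycle regulators, the inhibitor Cdkn1c fell (log2 change -4.50 by mRNA and -5.16 by footprint) and cyclin D2 (Ccnd2) fell (log2 change -3.33 by mRNA and -3.33 by footprint), whereas cyclin D1 (Ccnd1) was called in neither assay. Cdk5r2, an activator of the neuronal kinase CDK5, went the other way and rose (log2 change 2.19 by mRNA and 1.81 by footprint). Exons of Rfc5, Cdkn1c, Ccnd2 and Ccnd1 overlap another annotated gene.

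The bases before the transcription starts of 3 mitosis and replication genes are shown, from RefSeq on GRCm38.p6, each read 5′ to 3′ on the strand of the gene. Capitals mark matches to CCAAT, the box bound by NF-Y, to TTTGAA, the core of the cell cycle homology region, or to GCGGGAA, an E2F site, or to their reverse complements. Ccnb2 lies on the minus strand of chromosome 9 and Cdk1 on that of chromosome 10, both mitotic, and Mcm6, a replication gene, on that of chromosome 1. The 250 bases before the start are given for each.
Ccnb2, chr9:70421555-70421804, minus strand: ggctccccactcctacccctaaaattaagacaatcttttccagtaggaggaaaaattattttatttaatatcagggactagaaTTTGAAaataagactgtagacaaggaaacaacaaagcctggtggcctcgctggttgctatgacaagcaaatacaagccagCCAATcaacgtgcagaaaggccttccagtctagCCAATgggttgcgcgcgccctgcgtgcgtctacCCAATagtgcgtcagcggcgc
Cdk1, chr10:69352913-69353162, minus strand: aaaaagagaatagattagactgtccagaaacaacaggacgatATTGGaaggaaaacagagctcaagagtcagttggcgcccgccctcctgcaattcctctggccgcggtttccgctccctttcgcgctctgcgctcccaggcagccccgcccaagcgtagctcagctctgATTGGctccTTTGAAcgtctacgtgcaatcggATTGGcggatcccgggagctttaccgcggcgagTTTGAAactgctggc
Mcm6, chr1:128359706-128359955, minus strand: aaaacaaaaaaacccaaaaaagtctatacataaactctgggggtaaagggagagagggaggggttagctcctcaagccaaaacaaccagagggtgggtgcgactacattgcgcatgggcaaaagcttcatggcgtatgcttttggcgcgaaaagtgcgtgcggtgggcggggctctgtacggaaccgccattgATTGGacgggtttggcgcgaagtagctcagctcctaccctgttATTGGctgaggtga
Ccnb2 holds 3 matches to CCAAT and 1 to TTTGAA, Cdk1 holds 3 and 2, and Mcm6 holds 2 and none. The promoter table had 21 of the 25 mitosis genes and 25 of the 29 replication genes. In the 250 bases before the start, on either strand, CCAAT was found in 17 of the 21 mitosis genes and 14 of the 25 replication genes, beside 37.5% of the 27025 genes in the table. TTTGAA was found in 8 and 3 of them, beside 18.3% of all genes, and GCGGGAA in none and 8, beside 4.38%. Of 22 myelin genes in the table, a list that rose, 9 held CCAAT, 3 held TTTGAA and none held GCGGGAA. Of E2F sites only GCGGGAA was searched, so its counts do not cover other forms. The counts describe these windows and no binding was measured. Any link of the motifs to the changes of these lists was not tested.

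Radial glia and proneural genes fell with the cell cycle. Of the radial glia list 17 of 22 members fell by mRNA and 19 of 22 by footprint (medians -1.96 and -2.05), the latter 14 without E15.5 footprint replicate 1. Nes, which encodes the intermediate filament nestin, had 87.7 and 93.7 TPM at E15.5 and 2.05 and 2.18 TPM at P42 by mRNA and fell (log2 change -4.88 by mRNA and -5.15 by footprint). Fabp7, the brain lipid-binding protein, fell (log2 change -4.21 by mRNA and -4.15 by footprint). The filament gene Vim fell (log2 change -4.19 by mRNA and -4.35 by footprint). The list's rises were Slc1a3, a glutamate transporter that astrocytes keep, at 1.38 by mRNA and 1.84 by footprint, and Hopx, at 1.12 by mRNA with 0.82 by footprint, which was not called. Every one of the 16 intermediate progenitor and proneural genes tested by footprint fell, and 16 of 17 by mRNA. Neurog2, a proneural factor of the cortex, had 86 and 106 TPM at E15.5 and 2.28 and 3.60 TPM at P42 by mRNA and fell (log2 change -4.64 by mRNA and -4.89 by footprint). Insm1, a factor of delaminating progenitors, fell (log2 change -4.45 by mRNA and -3.99 by footprint). The exception by mRNA was Gadd45g, at -0.93. Hopx has exons that overlap another gene. Hopx had an mRNA change of 1.0, not called, without E15.5 RNA-seq replicate 2. Hopx had an mRNA change of 0.86, not called, without P42 RNA-seq replicate 1.

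On the deposited scale most genes of 3 signalling pathways of progenitors fell. In the Notch pathway 12 of 19 members fell by mRNA and 12 of 19 by footprint (medians -1.44 and -1.25), among them the ligands Dll1 and Dll3, at -2.99 and -2.57 by mRNA, and the receptor Notch1, at -2.59. Under every scaling 9 Notch pathway members fell by mRNA and 10 by footprint. Numb, which opposes Notch, rose by footprint (log2 change 1.37) and was not called by mRNA, at 0.20. In the Wnt pathway 20 of 22 members fell by mRNA and 15 of 21 by footprint (medians -1.76 and -1.27), with 12 falls under every scaling by mRNA, and the secreted inhibitor Sfrp1 had 89.4 and 98.4 TPM at E15.5 and 6.36 and 4.61 TPM at P42 by mRNA and fell (log2 change -3.88 by mRNA and -3.53 by footprint). Dkk3 was the 1 member that rose, at 2.68 and 3.08. Tcf7l2, a Wnt effector with strong thalamic expression in the adult, fell (log2 change -4.03 by mRNA and -2.29 by footprint), although its P42 RNA-seq libraries differed, at 2.90 and 11.4 TPM. In the Hedgehog pathway 9 of 12 members fell by mRNA, 8 of them under every scaling, led by the co-receptor Cdon at -3.48. By footprint 6 of 10 Hedgehog members fell and 1 rose, with 5 falls under every scaling. Without E15.5 footprint replicate 1, 10 Wnt genes fell by footprint. Overlapping exons of other genes make Dll1, Notch1 and Numb uncertain.

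Genes of migrating neurons fell, and no member of that list rose. The list had 15 of 18 members lower by mRNA and 14 of 18 by footprint, with medians of -3.75 and -3.75. Sox4, a factor of newborn neurons, had 715 and 806 TPM at E15.5 and 16.3 and 17.2 TPM at P42 by mRNA and fell (log2 change -5.42 by mRNA and -5.46 by footprint). St8sia2, which adds polysialic acid to NCAM, had 235 and 241 TPM at E15.5 and 2.37 and 1.98 TPM at P42 by mRNA and fell (log2 change -6.24 by mRNA and -5.22 by footprint). Mex3a, an RNA-binding ubiquitin ligase, fell (log2 change -6.38 by mRNA and -4.14 by footprint). Members that were not called included Pafah1b1 (Lis1), the dynein regulator of nuclear migration, with 165 and 163 TPM at E15.5 and 120.4 and 132 TPM at P42 by mRNA, and Dclk1, the paralog of Dcx, with 159 and 155 TPM at E15.5 and 136 and 139 TPM at P42. Exons of Sox4, Mex3a and Dclk1 overlap those of other annotated genes.

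Transcription factors of the cortex had medians nearer to 0 than those of the ventral forebrain. Of cortical projection neuron factors 13 of 25 fell by mRNA, 6 of them under every scaling, and 9 of 25 fell by footprint, with medians of -1.21 and -0.75. Some layer identity genes were not called. Tbr1 of deep layers had 94.2 and 117 TPM at E15.5 and 54 and 58.9 TPM at P42 by mRNA and was not called, at -0.89. Cux2 of upper layers had 29.6 and 31.2 TPM at E15.5 and 24 and 26.8 TPM at P42 and was not called. Mef2c, a factor of maturing neurons, had 23.7 and 27.8 TPM at E15.5 and 87.2 and 101 TPM at P42 by mRNA and rose (log2 change 1.83 by mRNA and 2.86 by footprint). Of interneuron and ventral forebrain factors 16 of 18 fell by mRNA and 14 of 18 by footprint, with medians of -2.10 and -1.96. Dlx2 had 65.2 and 82.3 TPM at E15.5 and 6.19 and 5.41 TPM at P42 by mRNA and fell (log2 change -3.45 by mRNA and -3.37 by footprint). Nkx2-1 of the medial ganglionic eminence fell (log2 change -3.79 by mRNA and -2.85 by footprint). The difference between the 2 medians was not tested.

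Of regional patterning factors 23 of 25 fell by mRNA and 13 of 16 by footprint, and this is the list most exposed to the regional content described above. Tfap2b had 99.7 and 93.9 TPM at E15.5 and 0.774 and 0.596 TPM at P42 by mRNA and 0.210 and 13.2 TPM at E15.5 and 0.229 and 0.147 TPM at P42 by footprint, so its E15.5 footprint libraries stood far apart, and fell (log2 change -5.86 by mRNA and -1.80 by footprint). Emx1 of the dorsal telencephalon, with 30.7 and 38.6 TPM at E15.5 and 36.7 and 44.7 TPM at P42, was not called. Of the 12 cerebellar genes, whose sum was 332 and 314 TPM at E15.5 and 411 and 538 TPM at P42 by mRNA, 3 of 10 tested members rose and 3 fell. Pvalb, also a gene of cortical interneurons, made up most of the P42 sum, at 226 and 354 TPM, while the granule cell genes Gabra6 and Cbln3 stood at 0.0329 and 0 TPM and 0.269 and 0.152 TPM. Transporters of monoamine and glycine neurons, whose cell bodies lie in the brainstem, summed to 16 and 11.1 TPM by mRNA at E15.5 and 0.110 and 0.160 TPM at P42. Tfap2b had a footprint change of -3.58 without E15.5 footprint replicate 1. Tfap2b had a footprint change of -0.03, not called, without E15.5 footprint replicate 2. Tfap2b had a footprint change of -1.75, not called, without P42 footprint replicate 2.

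Axon guidance genes fell in many cases. Of guidance receptors and adhesion molecules 22 of 29 fell by mRNA and 10 of 28 by footprint, and of guidance ligands 15 of 22 and 7 of 22, where 36.0% and 17.7% of all tested genes fell. Under every scaling 17 receptors and 6 ligands fell by mRNA, beside 15.2% of all tested genes. Medians of the receptors were -1.88 and -0.58, and those of the ligands -1.40 and -0.11. Plxna3, a semaphorin receptor, had 66.6 and 66.2 TPM at E15.5 and 3.52 and 2.88 TPM at P42 by mRNA and fell (log2 change -4.01 by mRNA and -2.58 by footprint). Dcc, the netrin receptor, had 16.5 and 18.7 TPM at E15.5 and 0.335 and 0.477 TPM at P42 and fell (log2 change -3.73 by mRNA and -1.97 by footprint). Epha3 fell (log2 change -3.77 by mRNA and -2.37 by footprint). The netrin gene Ntn1 fell (log2 change -3.13 by mRNA and -2.09 by footprint). Against this direction, the semaphorin Sema3e rose (log2 change 1.15 by mRNA and 2.99 by footprint). Slit3 rose by footprint (log2 change 2.48) and was not called by mRNA, at 0.29. The adhesion molecule Alcam rose by footprint (log2 change 1.63) and was not called by mRNA. Nrcam, another adhesion molecule, which also sits at nodes of Ranvier, rose by footprint (log2 change 1.68) and was not called by mRNA. Ephb2 fell (log2 change -3.75 by mRNA and -2.11 by footprint). Chl1, a close relative of L1, fell by mRNA (log2 change -2.84) and was not called by footprint. Sema3e had an mRNA change of 0.98, not called, without E15.5 RNA-seq replicate 2.

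Growth cone genes fell, and a part of the mature axon genes rose. Of the growth cone and embryonic cytoskeleton list 17 of 23 fell by mRNA and 16 of 23 by footprint (medians -2.34 and -2.04), and none rose in either assay on the deposited scale. Dpysl3, a collapsin response mediator, had 1321 and 1318 TPM at E15.5 and 21.5 and 21.1 TPM at P42 by mRNA and fell (log2 change -5.89 by mRNA and -5.10 by footprint). The tubulin Tubb2b had 2067 and 2222 TPM at E15.5 and 115 and 88.9 TPM at P42 and fell (log2 change -4.39 by mRNA and -4.63 by footprint), while Tubb4a had 479.5 and 464 TPM at E15.5 and 1525 and 1741 TPM at P42 and rose (log2 change 1.79 by mRNA and 1.79 by footprint). Tuba4a rose (log2 change 4.74 by mRNA and 5.15 by footprint). Tubb3, the tubulin used to mark young neurons, had 3114 and 3235 TPM at E15.5 and 605 and 651 TPM at P42 by mRNA and fell (log2 change -2.34 by mRNA and -2.20 by footprint). In the plot of gene pairs the 2 beta tubulins cross between the stages in both assays. Among microtubule-associated proteins, Map1b fell by mRNA (log2 change -2.35) and was not called by footprint, at -0.81. Mapt (tau) fell (log2 change -2.39 by mRNA and -1.40 by footprint). Map1a rose (log2 change 2.66 by mRNA and 3.69 by footprint). Of the mature axon list 12 of 24 rose and 6 fell by mRNA, and 17 of 24 rose and 2 fell by footprint (medians 0.92 and 1.77). After median-of-ratios scaling 15 rose and 2 fell by mRNA. Thy1 had 14.8 and 13.6 TPM at E15.5 and 760.0 and 846 TPM at P42 by mRNA and rose (log2 change 5.73 by mRNA and 5.84 by footprint). Cntnap1 of the paranode had 5.19 and 3.94 TPM at E15.5 and 78.7 and 84.4 TPM at P42 and rose (log2 change 3.90 by mRNA and 5.63 by footprint). The neurofilament heavy chain Nefh rose (log2 change 2.82 by mRNA and 3.72 by footprint), while the light chain Nefl rose by footprint (log2 change 2.06) and was not called by mRNA, at 0.62. Ina, the embryonic filament alpha-internexin, fell (log2 change -2.12 by mRNA and -1.78 by footprint). Exons of Tuba4a, Map1a, Cntnap1, Nefl and Ina overlap those of other genes.

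**Figure D3:**
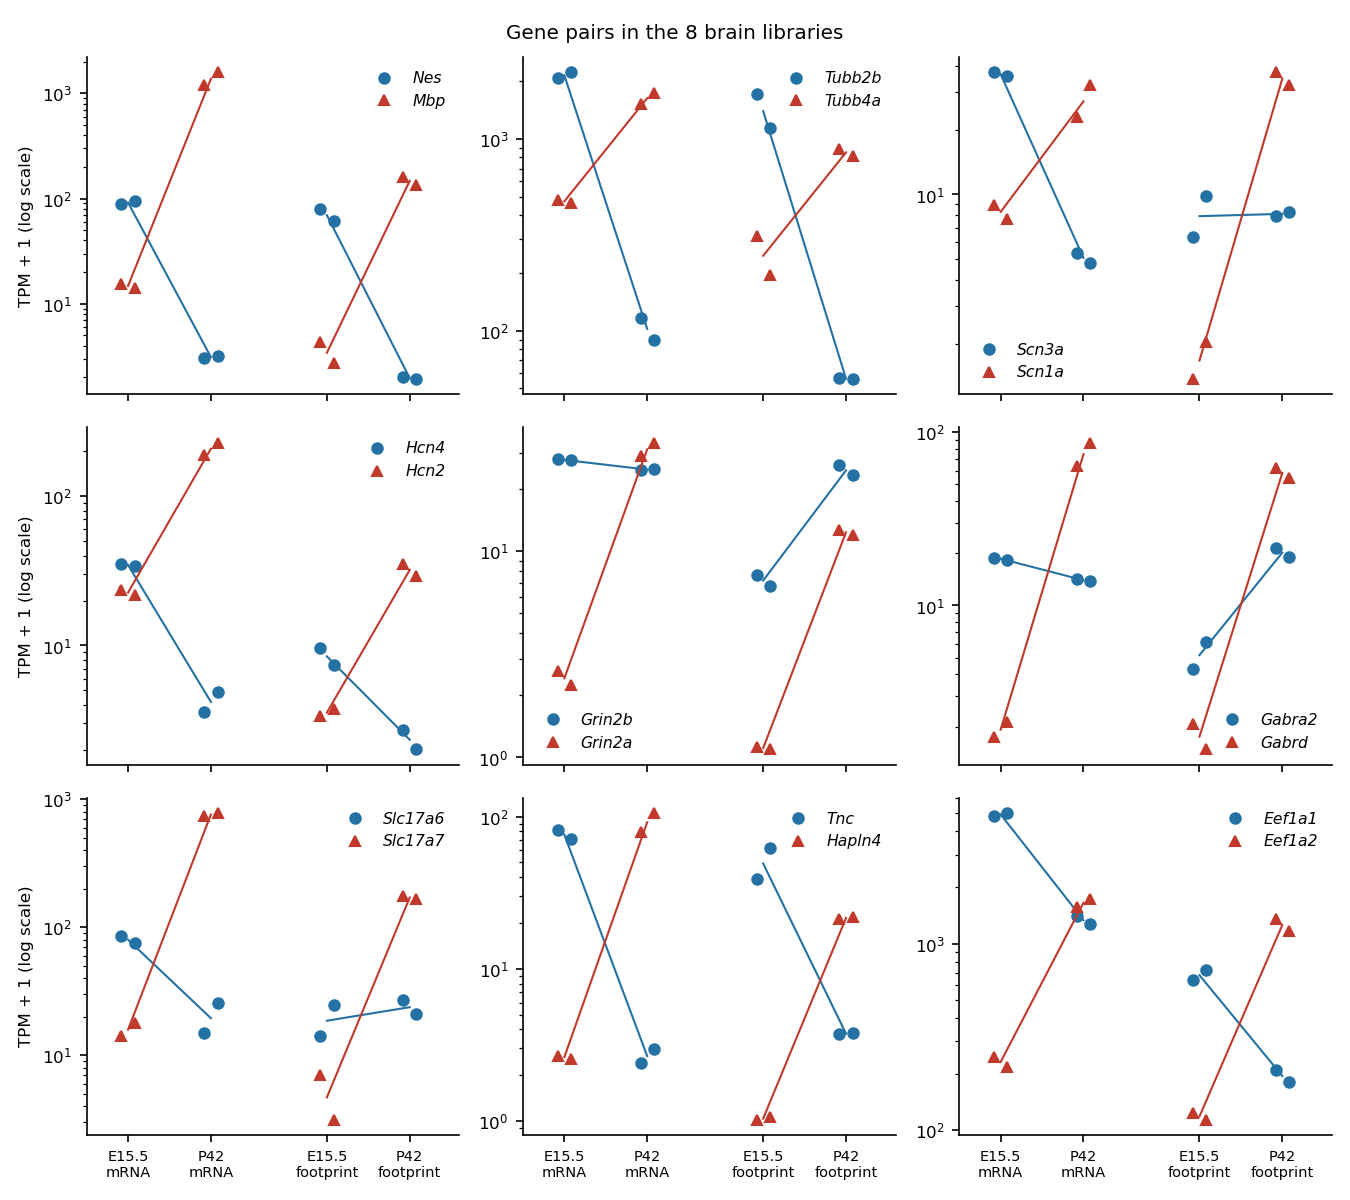
Level (TPM + 1, log axis) of 9 pairs of genes in the 8 brain libraries, with dots for the first gene of a pair, triangles for the second, 1 symbol per library and lines between the geometric means of each stage. Each panel shows mRNA on the left and footprints on the right. The symbols of Tubb2b and Tubb4a change order between the stages in both assays. Those of Grin2b and Grin2a change order by mRNA and approach each other at P42 by footprint.

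Voltage-gated channels changed by subunit. Sodium channel Scn3a, the main embryonic alpha subunit, had 36.2 and 34.7 TPM at E15.5 and 4.35 and 3.78 TPM at P42 by mRNA and 5.36 and 8.86 TPM at E15.5 and 6.93 and 7.31 TPM at P42 by footprint. It fell by mRNA (log2 change -2.85) and was not called by footprint. Scn1a had 7.91 and 6.72 TPM at E15.5 and 21.9 and 31.3 TPM at P42 by mRNA and 0.373 and 1.05 TPM at E15.5 and 36.1 and 31.5 TPM at P42 by footprint, and rose (log2 change 1.71 by mRNA and 4.37 by footprint). Scn8a, the subunit of the mature initial segment, rose (log2 change 1.44 by mRNA and 3.95 by footprint). Scn2a rose by footprint (log2 change 3.41) and was not called by mRNA, at 0.85. Among auxiliary subunits, Scn4b had 0.466 and 0.458 TPM at E15.5 and 156 and 171 TPM at P42 and rose (log2 change 6.81 by mRNA and 5.59 by footprint). Of the sodium channel list 5 of 9 rose and 3 fell by mRNA, and 6 of 8 rose by footprint. The remaining falls by mRNA were Scn9a, at -2.53, and Scn3b, at -1.57, the latter not under every scaling. Scn9a has exons that overlap another gene.

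Potassium and HCN channels rose as a group, with 23 of 32 members higher by mRNA and 28 of 32 by footprint, the latter 24 without E15.5 footprint replicate 2. Kcnj4, an inward rectifier, had 1.39 and 1.95 TPM at E15.5 and 191 and 188 TPM at P42 and rose (log2 change 6.17 by mRNA and 5.35 by footprint). Of the axonal channels, Kcna1 rose (log2 change 1.81 by mRNA and 4.54 by footprint). Kcna2 rose (log2 change 3.0 by mRNA and 3.80 by footprint). Kcnc2, a channel of fast-spiking neurons, rose (log2 change 2.43 by mRNA and 3.20 by footprint). The pacemaker HCN channels split: Hcn2 rose (log2 change 3.20 by mRNA and 3.18 by footprint). Hcn3 fell (log2 change -2.42 by mRNA and -1.59 by footprint). Hcn4 fell (log2 change -3.05 by mRNA and -1.86 by footprint). Hcn2 had 22.5 and 20.8 TPM at E15.5, below Hcn4 at 34.1 and 33.2 TPM, and 189 and 228 TPM at P42, above Hcn4 at 2.59 and 3.87 TPM. Of calcium channels, 3 of 15 were higher and 5 lower by mRNA and 10 of 15 higher by footprint. The balance by mRNA depends on the scaling, with 6 higher and 1 lower after median-of-ratios scaling. Cacna2d1, an auxiliary subunit, rose by footprint (log2 change 2.37) and was not called by mRNA, at 0.06. Cacnb4 rose (log2 change 1.52 by mRNA and 3.41 by footprint). Of ion pumps 10 of 17 rose by mRNA and 14 of 17 by footprint. Against that list, the pump modulator Fxyd6 fell (log2 change -1.96 by mRNA and -1.80 by footprint). Hcn3 and Cacnb4 overlap other annotated exons.

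Glutamate receptor genes rose in more cases by footprint than by mRNA. By mRNA 5 of 22 members rose and 5 fell, and by footprint 12 of 21 rose and 0 fell. The even split by mRNA depends on the scaling, since 9 rose and 1 fell after median-of-ratios scaling. The NMDA receptor subunit Grin2a had 1.62 and 1.24 TPM at E15.5 and 27.9 and 32.6 TPM at P42 by mRNA and 0.125 and 0.0946 TPM at E15.5 and 11.7 and 11 TPM at P42 by footprint, and rose (log2 change 3.69 by mRNA and 3.47 by footprint). Grin2b, the subunit that dominates before birth, had 26.9 and 26.5 TPM at E15.5 and 23.7 and 24 TPM at P42 by mRNA and 6.63 and 5.80 TPM at E15.5 and 25 and 22.3 TPM at P42 by footprint. It rose by footprint (log2 change 1.77) and was not called by mRNA, at -0.16. Grin2c, an NMDA receptor subunit of glia and cerebellar granule cells, rose (log2 change 4.04 by mRNA and 2.10 by footprint). The AMPA receptor subunit Gria2 had 63.4 and 60.9 TPM at E15.5 and 38.6 and 38.9 TPM at P42 by mRNA and 11.6 and 16.7 TPM at E15.5 and 124 and 113 TPM at P42 by footprint and rose by footprint (log2 change 3.0) and was not called by mRNA, at -0.67. Gria1 had 81.8 and 82.2 TPM at E15.5 and 162 and 141 TPM at P42 by mRNA and rose by footprint (log2 change 1.91) and was not called by mRNA, at 0.87. Its auxiliary protein Cacng3 rose (log2 change 2.56 by mRNA and 3.95 by footprint). The kainate receptor Grik3 fell by mRNA (log2 change -1.82) and was not called by footprint, at -0.57. Exons of Grin2b, Grin2c and Gria2 overlap those of other genes.

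Nearly all inhibitory receptor genes rose by footprint. Of GABA-A and glycine receptors and chloride transporters 6 of 19 rose by mRNA and 19 of 20 by footprint, 18 of them under every scaling. The subunits Gabra2, Gabra3 and Gabra5, which are prominent before birth, were not called by mRNA and rose by footprint, at 1.97, 1.38 and 2.07. Gabrd, of receptors outside synapses, had 0.730 and 1.13 TPM at E15.5 and 63.1 and 86.1 TPM at P42 by mRNA and 1.07 and 0.476 TPM at E15.5 and 61.6 and 53.1 TPM at P42 by footprint and rose (log2 change 5.28 by mRNA and 5.06 by footprint). The fetal glycine receptor subunit Glra2 fell (log2 change -3.0 by mRNA and -1.18 by footprint). The chloride exporter Slc12a5 (KCC2), which makes GABA inhibitory, had 68 and 55.8 TPM at E15.5 and 193 and 206 TPM at P42 by mRNA and rose (log2 change 1.68 by mRNA and 3.09 by footprint). The importer Slc12a2 (NKCC1) had 31.3 and 32.6 TPM at E15.5 and 27.5 and 28.5 TPM at P42 by mRNA and rose by footprint (log2 change 1.70) and was not called by mRNA, at -0.18. Gabrb2 had an mRNA change of -1.08, not called under every scaling, and rose by footprint, at 2.63. Of modulator receptors 14 of 30 rose by mRNA and 22 of 31 by footprint, led by the muscarinic receptor Chrm1, at 4.21 and 4.13. Exons of Gabra5 and Chrm1 are shared in position with other genes. Glra2 had a footprint change of -0.95, not called, without E15.5 footprint replicate 2.

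**Figure D4:**
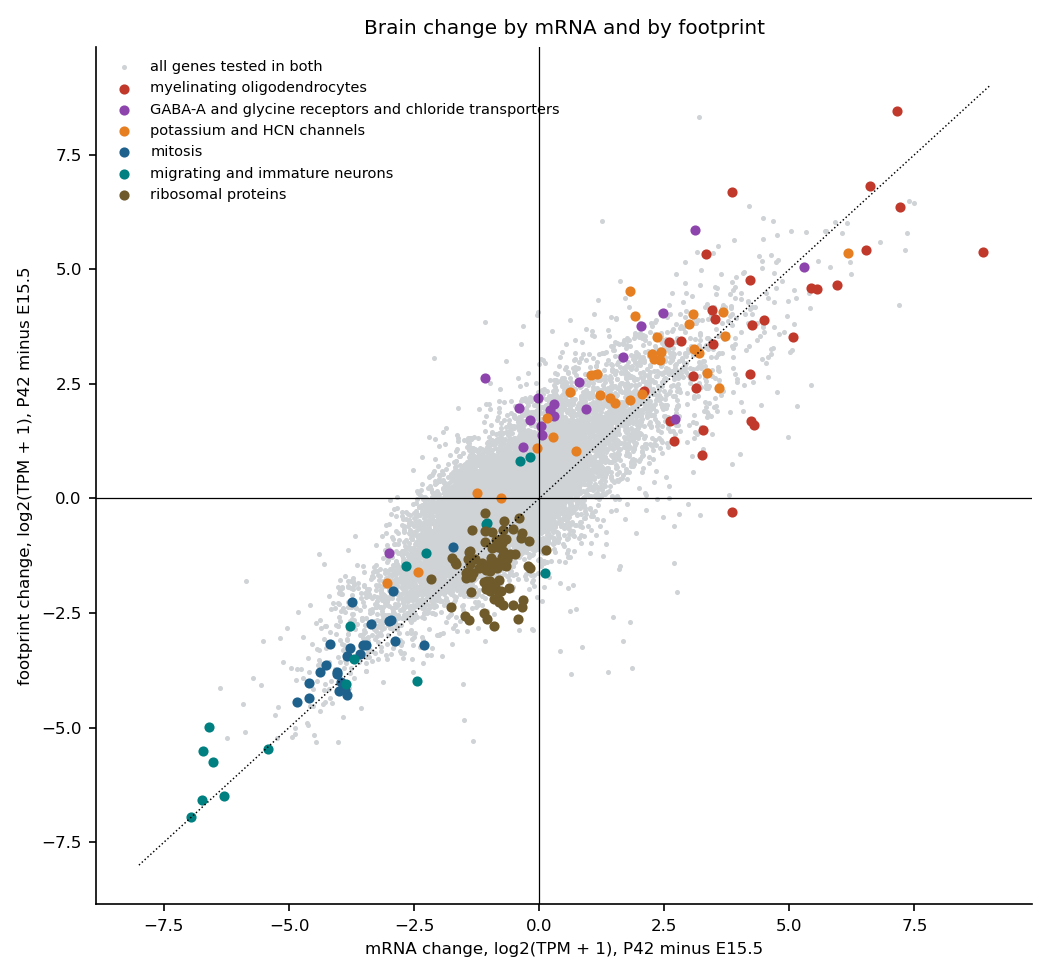
Log2 change of every gene tested in both assays, mRNA on the horizontal and footprint on the vertical axis, P42 minus E15.5 brain, with 6 gene lists in colour. The dotted line marks equal change in both assays. Both axes are on the deposited scale, where the median change was -0.60 by mRNA and -0.01 by footprint. After median-of-ratios scaling these medians were 0.09 and 0.12. Above the line lie 77.3% of all genes, 17 of 19 inhibitory receptor and chloride transporter genes and 27 of 32 potassium and HCN channel genes, and below it lie 22.7% of all genes and 63 of 77 ribosomal protein genes.

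Synaptic genes rose on both sides of the synapse. Of vesicle and release genes 19 of 38 rose by mRNA and 33 of 38 by footprint (medians 1.09 and 2.10), and of postsynaptic genes 19 of 40 and 30 of 40. By mRNA 31 and 29 rose after median-of-ratios scaling. Snap25, a core fusion protein, had 92.6 and 84.8 TPM at E15.5 and 1223 and 1501 TPM at P42 by mRNA and rose (log2 change 3.92 by mRNA and 4.61 by footprint). Complexin Cplx3 rose (log2 change 4.68 by mRNA and 3.28 by footprint). The vesicle protein Sv2b rose (log2 change 3.51 by mRNA and 4.62 by footprint). On the receiving side Itpka, a spine kinase of inositol phosphate, had 0.729 and 1.36 TPM at E15.5 and 317 and 326 TPM at P42 by mRNA and rose (log2 change 7.32 by mRNA and 5.41 by footprint). Ddn (dendrin) had 5.46 and 6.64 TPM at E15.5 and 1166 and 901 TPM at P42 and rose (log2 change 7.19 by mRNA and 4.22 by footprint). Scaffold genes moved less: Dlg4 (PSD-95) rose (log2 change 1.39 by mRNA and 1.43 by footprint). Shank3 rose by mRNA (log2 change 1.21) and was not called by footprint, at 0.93. Homer3 went against the list and fell by footprint (log2 change -1.17) and was not called by mRNA, at -0.96. The neuroligin Nlgn2 was called in neither assay. The exons of Sv2b, Ddn, Shank3 and Homer3 overlap those of other genes. Homer3 had a footprint change of -0.73, not called, without E15.5 footprint replicate 1.

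Genes of transmitters and peptides changed in both directions. Of the vesicular glutamate transporters, Slc17a6 (VGLUT2) had 84.3 and 73.7 TPM at E15.5 and 13.9 and 24.5 TPM at P42 by mRNA and fell by mRNA (log2 change -2.03) and was not called by footprint, while Slc17a7 (VGLUT1) had 737 and 779 TPM at P42. The GABA enzymes Gad1 and Gad2 were not called by mRNA and rose by footprint, at 2.59 and 2.0. Maob, a glial monoamine oxidase, rose (log2 change 2.60 by mRNA and 2.29 by footprint). Slc18a2, which loads monoamines into vesicles, fell (log2 change -2.64 by mRNA and -2.93 by footprint). Monoamine neurons have their cell bodies in the brainstem, so stage and regional content cannot be told apart for Slc18a2. Of neuropeptide and granin genes 21 of 33 rose by mRNA and 21 of 32 by footprint (medians 1.38 and 1.66). Cck had 29.4 and 23.6 TPM at E15.5 and 1067 and 1247 TPM at P42 by mRNA and rose (log2 change 5.40 by mRNA and 4.49 by footprint). Vip rose (log2 change 4.69 by mRNA and 4.91 by footprint). Penk rose (log2 change 4.06 by mRNA and 4.92 by footprint). The granin Vgf rose (log2 change 3.81 by mRNA and 3.98 by footprint). The hypothalamic peptides Pmch and Gal went the other way, at -2.85 and -1.40 by mRNA, the latter not under every scaling. Avp was not called, and its P42 RNA-seq libraries stood at 33.6 and 4.56 TPM. All 12 striatal genes rose by footprint and 11 of 12 by mRNA, among them Ppp1r1b (DARPP-32), with 19.8 and 23 TPM at E15.5 and 511 and 475 TPM at P42, which rose (log2 change 4.46 by mRNA and 3.81 by footprint). Of activity-regulated genes 10 of 21 rose and 3 fell by mRNA, and 12 of 20 rose and 2 fell by footprint. After median-of-ratios scaling 13 rose and 1 fell by mRNA. Egr1 had 2.54 and 2.91 TPM at E15.5 and 94.5 and 108 TPM at P42 by mRNA and rose (log2 change 4.78 by mRNA and 5.20 by footprint). Egr4 rose (log2 change 5.04 by mRNA and 3.23 by footprint). Arc rose (log2 change 3.31 by mRNA and 2.90 by footprint), while Btg2, also a gene of neurogenic progenitors, fell (log2 change -2.18 by mRNA and -2.34 by footprint). Exons of Slc18a2, Penk, Pmch and Ppp1r1b overlap other genes.

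Of the genes of myelinating oligodendrocytes 30 of 30 rose by mRNA and 28 of 30 by footprint, with medians of 4.04 and 3.65. Mbp, the basic protein of compact myelin, had 14.4 and 13.2 TPM at E15.5 and 1191 and 1586 TPM at P42 by mRNA and 3.30 and 1.73 TPM at E15.5 and 160.1 and 134 TPM at P42 by footprint and rose (log2 change 6.54 by mRNA and 5.43 by footprint), with an SE of 0.23 and an adjusted p from limma of 1.7e-21 by mRNA. Opalin had 0 and 0.0518 TPM at E15.5 and 51.2 and 77.1 TPM at P42 by mRNA and rose (log2 change 5.96 by mRNA and 4.65 by footprint). Of the enzymes that make the galactolipids of myelin, Ugt8a rose (log2 change 3.33 by mRNA and 5.33 by footprint). Fa2h rose (log2 change 5.55 by mRNA and 4.56 by footprint). Trf, which encodes transferrin, rose by mRNA (log2 change 3.86) and was not called by footprint, at -0.29. Car2 rose by mRNA (log2 change 3.26) and was not called by footprint, at 0.95. Trf is also a protein that liver secretes, and footprints of liver genes were higher in the E15.5 than in the P42 libraries, as given below. Their part in the Trf result was not tested. Of the precursor list 4 of 15 rose and 3 fell by mRNA, or 7 and 1 after median-of-ratios scaling. Pdgfra of oligodendrocyte precursors had 14.6 and 13.4 TPM at E15.5 and 14.8 and 12.3 TPM at P42 by mRNA and was called in neither assay. Olig2 was not called either, at 0.55 by mRNA and 0.65 by footprint. Sox10, shared by precursors and myelinating cells, rose (log2 change 3.02 by mRNA and 2.64 by footprint). Trf and Pdgfra overlap exons of other genes.

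Astrocyte genes rose in 23 of 27 cases by mRNA and 24 of 27 by footprint (medians 2.91 and 3.01). Apoe had 176 and 156 TPM at E15.5 and 2761 and 2457 TPM at P42 by mRNA and rose (log2 change 3.96 by mRNA and 2.55 by footprint). Clu rose (log2 change 3.83 by mRNA and 4.15 by footprint). Cldn10 rose (log2 change 4.36 by mRNA and 3.82 by footprint). Kcnj10, which buffers potassium, rose (log2 change 3.22 by mRNA and 3.57 by footprint). Sparcl1, a secreted protein that promotes synapses, rose (log2 change 2.87 by mRNA and 4.28 by footprint). Aldh1l1, Fgfr3 and Mfge8 were called in neither assay, with mRNA changes of 0.67, 0.79 and 0.66. Of microglial genes 20 of 21 rose by mRNA and 18 of 21 by footprint, the latter 14 without E15.5 footprint replicate 2. Selplg had 0.905 and 0.846 TPM at E15.5 and 31.3 and 24.9 TPM at P42 by mRNA and rose (log2 change 3.95 by mRNA and 2.60 by footprint). The purinergic receptor P2ry12 rose (log2 change 1.94 by mRNA and 3.09 by footprint). Sall1 went against its list, at -1.41 by mRNA, not under every scaling, and -1.24 by footprint, and it is also made by embryonic neural progenitors. Matrix genes changed in both directions. Tnc (tenascin C) had 80.2 and 70.4 TPM at E15.5 and 1.40 and 1.98 TPM at P42 by mRNA and fell (log2 change -4.83 by mRNA and -3.71 by footprint). Vcan (versican) fell (log2 change -3.74 by mRNA and -2.53 by footprint). Hapln4, a link protein of perineuronal nets, had 1.69 and 1.58 TPM at E15.5 and 78.8 and 105 TPM at P42 and rose (log2 change 5.13 by mRNA and 4.38 by footprint). Bcan (brevican) rose (log2 change 2.70 by mRNA and 2.69 by footprint). Lgi3 rose (log2 change 4.46 by mRNA and 5.17 by footprint). Overlap with exons of another gene makes Aldh1l1, Fgfr3, P2ry12 and Tnc uncertain. Sall1 had a footprint change of -0.98, not called, without E15.5 footprint replicate 1.

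Genes of cells outside the neural lineage changed in both directions. Of red cell genes 10 of 10 fell by mRNA and 11 of 11 by footprint, and they summed to 6274 and 5734 TPM by mRNA at E15.5 and 367 and 239 TPM at P42. Hbb-bs had 3305 and 2872 TPM at E15.5 and 212 and 143 TPM at P42 by mRNA and fell (log2 change -4.14 by mRNA and -4.46 by footprint), although near-identical globin copies can share reads. Hbb-y, an embryonic globin, fell (log2 change -5.24 by mRNA and -5.22 by footprint). Fibroblast and meningeal genes fell in 11 of 12 cases by mRNA, 7 under every scaling, with Col3a1 at 58.6 and 55.6 TPM at E15.5 and 2.15 and 1.42 TPM at P42 and a change of -4.40, whereas Mgp rose (log2 change 3.34 by mRNA and 2.55 by footprint). Endothelial genes split, with 6 of 22 higher and 5 lower by mRNA, 6 and 2 of them under every scaling. Kdr, the VEGF receptor of growing vessels, fell (log2 change -1.95 by mRNA and -1.55 by footprint). Slco1a4, a barrier transporter, rose (log2 change 2.85 by mRNA and 3.03 by footprint). Ly6c1 rose (log2 change 4.57 by mRNA and 2.64 by footprint). Pericyte genes fell in 3 of 11 cases by mRNA, a share below the 36.0% of all genes, and rose in none on the deposited scale, whereas 3 rose and 2 fell after median-of-ratios scaling. The count of ependymal and choroid plexus genes that fell by mRNA was 7 of 13 with both P42 libraries, 4 without P42 RNA-seq replicate 2 and 4 after median-of-ratios scaling. Otx2 fell (log2 change -3.76 by mRNA and -1.95 by footprint). Enpp2, also a gene of oligodendrocytes, rose (log2 change 2.62 by mRNA and 4.02 by footprint). Exons of Col3a1, Otx2 and Enpp2 overlap those of other genes. Otx2 had a footprint change of -1.24 without E15.5 footprint replicate 2.

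Chromatin genes fell with the progenitors. Of the list 24 of 31 fell by mRNA and 21 of 29 by footprint (medians -1.92 and -1.54), and 19 and 17 under every scaling. Ezh2, the methyltransferase of Polycomb, had 51.3 and 59 TPM at E15.5 and 1.96 and 1.81 TPM at P42 by mRNA and fell (log2 change -4.28 by mRNA and -4.06 by footprint). Hmgb2 fell (log2 change -3.93 by mRNA and -4.06 by footprint). Dnmt3a, the de novo DNA methyltransferase, fell (log2 change -1.94 by mRNA and -1.54 by footprint). Hdac11 rose (log2 change 1.27 by mRNA and 1.54 by footprint). Ezh1, the paralog of Ezh2, rose by footprint (log2 change 1.73) and was not called by mRNA, at 0.43. Of BAF complex subunits 12 of 19 fell by mRNA and 8 of 19 by footprint, 8 and 6 under every scaling, and none rose in either assay. Actl6a, the progenitor subunit, had 36.4 and 40.3 TPM at E15.5 and 7.39 and 7.62 TPM at P42 and fell (log2 change -2.21 by mRNA and -2.40 by footprint). Its neuronal counterpart Actl6b had 102 and 101 TPM at E15.5 and 52.8 and 51.2 TPM at P42 and was not called, at -0.95 and -0.85. Dpf3, a neuronal subunit, fell (log2 change -2.30 by mRNA and -1.99 by footprint). The exons of Ezh2, Dnmt3a, Hdac11 and Actl6a overlap those of other genes.

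Of RNA-binding and splicing factors 22 of 30 fell by mRNA and 11 of 29 by footprint (medians -1.68 and -0.54), and 13 and 11 did so under every scaling. Ptbp1, the splicing repressor of progenitors, had 75.9 and 82 TPM at E15.5 and 11.3 and 10.7 TPM at P42 by mRNA and fell (log2 change -2.74 by mRNA and -2.60 by footprint). Its neuronal paralog Ptbp2 fell by mRNA (log2 change -2.44) and was not called by footprint, at -0.94. Igf2bp1, an oncofetal messenger-binding protein, had 10.4 and 12.2 TPM at E15.5 and 0.0422 and 0 TPM at P42 and fell (log2 change -3.59 by mRNA and -2.43 by footprint). Lin28b fell by mRNA (log2 change -2.35). Rbfox3, the antigen known as NeuN, had 46.1 and 45.2 TPM at E15.5 and 150.4 and 166 TPM at P42 and rose (log2 change 1.77 by mRNA and 2.71 by footprint). Mbnl2, which sets adult splicing, rose (log2 change 2.11 by mRNA and 3.46 by footprint). Of translation factors 16 of 31 fell by mRNA, 5 under every scaling, and 11 of 31 fell by footprint, 9 under every scaling. The elongation factors exchanged: Eef1a1 had 4843 and 5016 TPM at E15.5 and 1407 and 1268 TPM at P42 and fell (log2 change -1.88 by mRNA and -1.79 by footprint), while Eef1a2, the form of adult neurons and muscle, had 246 and 217 TPM at E15.5 and 1577 and 1738 TPM at P42 and rose (log2 change 2.84 by mRNA and 3.41 by footprint). Ribosomal protein genes depended on the scaling by mRNA, where 31 of 77 fell and 1 did so under every scaling, with a median of -0.94 beside -0.60 for all genes. By footprint 61 of 78 fell, 56 under every scaling, with a median of -1.47 beside -0.01 for all genes. Ribosomal protein genes have many near-identical processed copies in the genome, between which the counting could split reads. Ptbp1, Igf2bp1, Mbnl2 and Eef1a1 have exons that overlap another gene.

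Energy genes moved unevenly. Of glycolysis and lactate genes 14 of 30 rose by mRNA and 18 of 30 by footprint (medians 0.88 and 1.36). By mRNA 22 rose after median-of-ratios scaling. Eno2, the neuronal enolase, had 46.1 and 36.3 TPM at E15.5 and 504 and 562 TPM at P42 by mRNA and rose (log2 change 3.67 by mRNA and 4.22 by footprint), while Eno1 was not called, at 0.85 by mRNA and 0.41 by footprint. Pfkp rose by footprint (log2 change 3.77) and was not called by mRNA. Ckmt1, the mitochondrial creatine kinase, rose (log2 change 2.69 by mRNA and 3.41 by footprint). Of nuclear genes of oxidative phosphorylation 13 of 49 rose by mRNA and 6 of 49 by footprint (medians 0.61 and 0.45). The mRNA count depends on the scaling, with 36 rises after centring on the median gene and 40 after median-of-ratios scaling. Among these was Cox6a2, with 0.325 and 0.420 TPM at E15.5 and 50.4 and 67.7 TPM at P42, which rose (log2 change 5.44 by mRNA and 2.48 by footprint). Cox8a rose by mRNA (log2 change 2.58) and was not called by footprint. Of the 13 mitochondrially encoded genes 12 of 13 rose by mRNA and 11 of 13 by footprint, and mt-Atp6 rose (log2 change 2.91 by mRNA and 5.17 by footprint). Cholesterol synthesis genes fell in 9 of 22 cases by mRNA, near the 36.0% of all genes, and in 3 under every scaling. None fell by footprint on the deposited scale, or 4 without E15.5 footprint replicate 2 and 4 without P42 footprint replicate 1. Cyp46a1, which turns brain cholesterol into an exported form, had 14.4 and 13.3 TPM at E15.5 and 215 and 232 TPM at P42 and rose (log2 change 3.92 by mRNA and 4.37 by footprint). Exon overlap with other genes touches Pfkp, Ckmt1, Cox6a2 and mt-Atp6. Cox6a2 had a footprint change of 1.59 without E15.5 footprint replicate 2.

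Of nuclear receptors and thyroid hormone genes 6 of 17 rose and 5 fell by mRNA, or 10 and 2 after median-of-ratios scaling. By footprint 4 fell, and 1 without E15.5 footprint replicate 1. The thyroid hormone receptor Thrb had 1.07 and 1.02 TPM at E15.5 and 14.1 and 17 TPM at P42 by mRNA and rose (log2 change 3.01 by mRNA and 2.52 by footprint). Klf9, a direct target of thyroid hormone, had 4.20 and 4.23 TPM at E15.5 and 110.0 and 115 TPM at P42 and rose (log2 change 4.45 by mRNA and 5.03 by footprint). Dio2, which activates the hormone, rose (log2 change 4.09 by mRNA and 2.47 by footprint). Dio3, which inactivates it, fell (log2 change -1.85 by mRNA and -1.26 by footprint). The orphan receptor Nr2f2 fell (log2 change -3.10 by mRNA and -2.11 by footprint). Of circadian clock genes 10 of 16 rose by mRNA and 14 of 16 by footprint (medians 1.78 and 2.48), Dbp at 7.90 and 7.60 TPM at E15.5 and 194 and 198 TPM at P42 by mRNA with changes of 4.50 and 3.62. The labels give no time of day, so stage and time of collection cannot be told apart for this list. Of imprinted growth genes 13 of 18 fell by mRNA and 10 of 16 by footprint (medians -2.48 and -1.93). Nnat (neuronatin), among the 10 highest genes at E15.5 by mRNA, had 6216 and 6377 TPM at E15.5 and 339 and 192 TPM at P42 and fell (log2 change -4.62 by mRNA and -4.93 by footprint). Dlk1 fell (log2 change -3.12 by mRNA and -4.0 by footprint). Impact rose (log2 change 1.79 by mRNA and 4.19 by footprint). Snrpn rose (log2 change 1.24 by mRNA and 1.39 by footprint). Among MHC class I and interferon genes 7 of 14 rose by mRNA, 11 after median-of-ratios scaling, and none fell. By footprint 4 of 13 rose, 3 under every scaling, and none fell. The mRNA log2 changes were 1.63 for B2m, the light chain of class I, and 2.73 for Ifit3. Dio2, Nr2f2, Dbp, Nnat and Snrpn overlap exons of other genes. Dio3 had a footprint change of -0.89, not called, without E15.5 footprint replicate 1.

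Few genes were called in opposite directions, 53 lower by mRNA and higher by footprint and 11 the reverse. The 5 largest of the second kind were Gm10382, Hist1h2bc, Wdr38, Hist1h1c and Myh7, of which 2 are histone genes. Hist1h2bc had 15.1 and 17.9 TPM at E15.5 and 67.9 and 57.1 TPM at P42 by mRNA and 235 and 85.8 TPM at E15.5 and 10.5 and 9.47 TPM at P42 by footprint, with changes of 1.86 and -3.70. Hist1h1c had changes of 1.68 and -3.10. Most messages of replication-dependent histones carry no poly(A) tail, so RNA-seq of polyadenylated RNA sees only a part of them. The part of this in the 2 histone results was not tested. Myh7, a cardiac myosin, had 1.40 and 1.23 TPM at E15.5 and 6.25 and 5.64 TPM at P42 by mRNA and 7.36 and 1.73 TPM at E15.5 and 0.754 and 0.561 TPM at P42 by footprint. A set of 7 heart genes also differed between the brain footprint libraries, as given below, and its part in the Myh7 result was not tested. The 5 largest of the first kind were Gm11096, Gm21985, Gm49358, Slc8a1 and Zfp281. Slc8a1, a sodium and calcium exchanger, had 24.1 and 25.5 TPM at E15.5 and 4.91 and 6.83 TPM at P42 by mRNA and 68.7 and 84.7 TPM at E15.5 and 221 and 197 TPM at P42 by footprint, with changes of -1.92 and 1.44. Zfp281, a zinc finger factor, had changes of -1.65, not under every scaling, and 1.38. Exons of Gm10382, Wdr38, Myh7, Gm11096, Gm21985, Gm49358 and Slc8a1 overlap those of another gene.

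There were 13 genes at 1 TPM or more in both P42 RNA-seq libraries and listed at 0 in both E15.5 ones, and 19 the reverse. The 5 highest at P42 were Klk6, Cox8b, Asb11, Gm20594 and Acot5. Klk6, a protease of oligodendrocytes, stood at 11.4 and 23.7 TPM at P42 and was listed at 0 in both E15.5 libraries, so no fold change is given. Cox8b, an isoform of cytochrome oxidase found in muscle and brown fat, was listed at 0 at E15.5 and stood at 8.18 and 3.0 TPM at P42. The 5 highest of the reverse kind were the Hox genes Hoxa5, Hoxb5, Hoxa4, Hoxa2 and Hoxd3, led by Hoxa5, at 44.7 and 3.29 TPM in E15.5 replicates 1 and 2 and listed at 0 in both P42 libraries. These 5 belong to the regional content described above, and exons of Hoxb5, Hoxa4, Hoxa2 and Hoxd3 overlap those of other genes.

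Secreted proteins of liver appeared in the brain footprints and scarcely in the brain mRNA. A set of 7 liver genes summed to 1991 and 3218 TPM by footprint at E15.5 and 770.2 and 767 TPM at P42, which was 1.96 and 3.17 percent and 0.732 and 0.729 percent of their level in liver footprints. By mRNA the set summed to 8.05 and 7.36 TPM and 9.29 and 47.1 TPM. Alb alone had 1001 and 1694 TPM at E15.5 and 491 and 488 TPM at P42 by footprint, while its brain mRNA was 0.283 and 0.528 TPM at E15.5 and 2.44 and 22.8 TPM at P42. A set of 7 heart genes summed to 155 and 22.7 TPM at E15.5 and 128 and 20.8 TPM at P42 by footprint, so the first replicate of each stage held more. Both sets were chosen after their values were seen, and how these footprints came into the brain libraries was not tested. Of the 2357 genes that fell by footprint, 2242 were left when genes whose brain footprint level stayed below 5% of that in the highest tissue were taken out, and of the 2690 that rose, 2538 were. Markers of most tissues around the brain had low summed levels by mRNA: 8 pituitary genes summed to 11.1 and 10.0 TPM and 6.13 and 6.47 TPM, 9 skeletal muscle genes to 10.9 and 11.5 TPM and 28.8 and 32.9 TPM, and 9 cartilage and bone genes to 26.5 and 26.3 TPM and 8.47 and 7.74 TPM. The 9 eye genes summed to 2.94 and 3.29 TPM and 19.6 and 26.1 TPM, and the 8 skin and oral epithelium genes to 35.4 and 33.9 TPM and 32.5 and 28.3 TPM. The 6 olfactory epithelium genes summed to 12.2 and 9.69 TPM at E15.5 and 167 and 187 TPM at P42, of which Gng13, a G protein subunit whose exons overlap another gene, made up 159 and 179 TPM at P42, while Omp, the olfactory marker protein, stood at 0.534 and 0.315 TPM. Their part in the brain results was not tested.

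The brain change differed from that of the other tissues in many genes. Set against the mean change of retina, heart, kidney, liver and lung, the brain change was higher in 2994 genes (20.7%) and lower in 1306 (9.04%) by mRNA, and higher in 3536 (26.6%) and lower in 734 (5.51%) by footprint. The median difference over all tested genes was 0.26 by mRNA and 0.51 by footprint. Centring on that median turned the footprint counts to 1720 higher and 1640 lower, and 1618 and 721 were called under every scaling. The largest positive differences by mRNA included those of Mobp, Itpka, Mbp, Ddn and Gpr37l1. Itpka changed by 7.32 in brain and by -0.92 on average elsewhere, a difference of 8.24 with an SE of 0.22 and an adjusted p from limma of 2.4e-24. The largest negative ones were those of Tfap2b, Eomes, Aqp1, Draxin, Barhl1 and Trim67. Aqp1, a water channel of the choroid plexus, changed by -2.66 in brain and by 2.53 elsewhere. Trim67, a neuronal ubiquitin ligase, changed by -5.72 and -0.87. Barhl1, a factor of midbrain and hindbrain neurons, changed by -4.95 and -0.09. By footprint the largest positive differences included those of Mog, Mag, Gm21954, Penk and Mal, with Mog at 6.35. The largest negative ones were those of Igfbpl1, Kcne2, Draxin, Eomes, Gpc2 and Dcx, with Kcne2, a potassium channel subunit of the choroid plexus, at -4.11. Among these genes, exons of Mobp, Ddn, Eomes, Trim67, Gm21954, Penk and Gpc2 overlap those of other genes. Aqp1 had an mRNA change of -1.70 without P42 RNA-seq replicate 2.

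**Figure D5:**
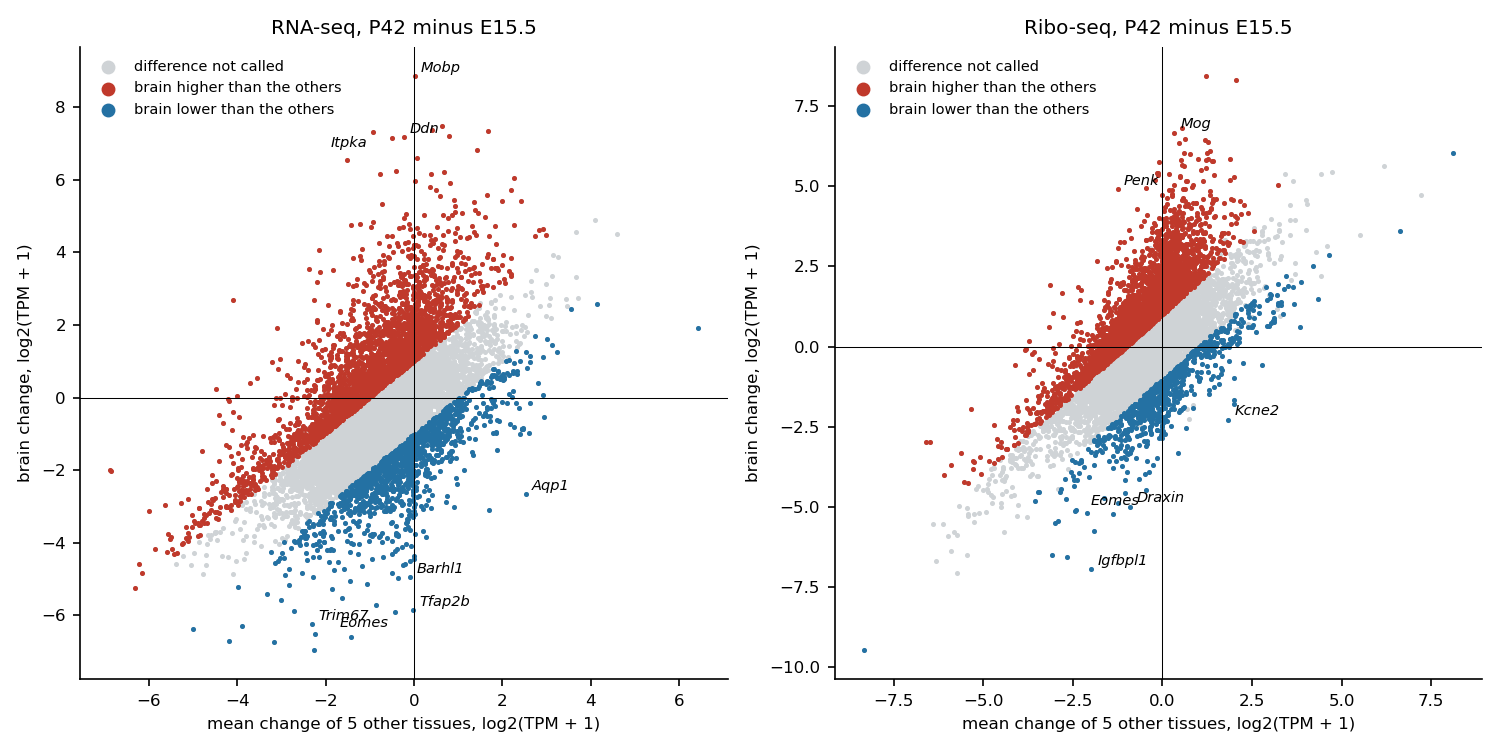
Log2 change of each gene in brain (vertical axis) against its mean change in retina, heart, kidney, liver and lung (horizontal axis), P42 minus E15.5, by RNA-seq on the left and Ribo-seq on the right. Red and blue points are genes whose brain change was called higher or lower than that mean, 2994 and 1306 by RNA-seq. Itpka changed by 7.32 in brain and by -0.92 elsewhere.

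Retina is the other neural tissue of the series. The brain change was higher than that of retina in 1885 genes (13%) and lower in 3924 (27.2%) by mRNA, and higher in 1747 (13.1%) and lower in 1776 (13.3%) by footprint. The median difference over all tested genes was -0.31 by mRNA and -0.06 by footprint. After median-of-ratios scaling the mRNA counts were 2975 higher and 2395 lower, and 1787 and 2393 were called under every scaling. The largest positive differences by mRNA included those of Itpka, Mobp, Mbp, Fgf15 and Vxn. Itpka rose in brain and fell in retina, with changes of 7.32 and -2.11 by mRNA and a difference of 9.43. Fgf15, a growth factor of progenitors, changed by -4.03 in brain and -10.66 in retina. Vxn, which promotes neurogenesis, changed by 2.43 and -3.95, a difference of 6.38. The largest negative differences included those of the photoreceptor genes Gnat1, Pde6g, Prph2 and Sag, which retina gains, and of Kcne2, which changed by -3.09 in brain and 6.58 in retina, a difference of -9.67. Gnat1 itself had 0.438 and 0.534 TPM at E15.5 and 7.48 and 10.1 TPM at P42 in brain by mRNA, and changed by 13.50 in retina. Summed, Gnat1 and Sag stood in the P42 brain RNA-seq libraries at 0.0412 and 0.0541 percent of their level in retina, and their part in the result was not tested. By footprint the largest positive differences from retina included those of Mog, Mag, Itpka and Ugt8a and the largest negative ones were those of Gnat1, Kcne2, Rlbp1, Mmp9, Unc119 and Krt18. Genes called in opposite directions in brain and retina, with a called difference, numbered 78 higher in brain and 295 lower by mRNA, of which 75 and 86 held under every scaling for brain and for the difference. By footprint they numbered 56 and 68. Mobp, Fgf15 and Vxn overlap other annotated exons. Kcne2 had an mRNA change of -1.74 without P42 RNA-seq replicate 2.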

How the data were processed

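RNA-seq and Ribo-seq of 6 tissues at 2 stages were read from TPM values that the authors deposited, 1 table for each stage and assay. Per the submitters' processing notes, CASAVA 1.8.2, cutadapt 1.8.1, TopHat2 2.0.14 and featureCounts 1.6.2 were used with GRCm38.p6. The sources used here do not give the strand setting, the annotation version or pooling. Per the labels' protocols, footprints came from nuclease-treated lysate after ribosomal RNA removal and mRNA libraries from polyadenylated RNA.

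Values were transformed to log2(TPM + 1). In each assay a limma 3.58.1 model (R 4.3.3, trended variance, Benjamini-Hochberg adjustment) was fitted to all 24 libraries in 12 groups of 2. Genes needed 1 TPM in at least 2 libraries and a mean of 1 TPM over the 4 brain libraries. A gene was called when its log2 difference reached 1 in size and its adjusted p lay under 0.05. Contrasts were the brain change, that change minus the mean of the other 5 tissues, and minus retina. The series calls replicates biological, and p-values measure only the spread between these libraries. The script was tested on simulated data.

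Gene names, exon overlap and positions came from a GENCODE annotation that matched 22029 of 22055 listed genes, and promoters from RefSeq. Every member and the 62 gene lists were chosen with earlier results of these data known. Genes named are the 12 (mRNA) and 8 (footprint) largest changes each way called in both assays, up to 4 (mRNA) and 3 (footprint) per list and direction, members against their list's majority, a fixed set, the 6 largest differences from other tissues, 5 opposite calls, 5 genes at 1 stage and the 10 highest levels. Some genes that these rules name are not reported here. Other members named, among them those not called, were chosen after their values were seen. Alternatives changed the pseudocount, scaling, filter, variance model, replicate block and libraries. Same-numbered replicates are not tied together by the labels.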

Additional observations from a re-analysis of the deposited data

Results flagged for a closer look

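The brain change differed from the change in other tissues by the test of the difference itself. Against the mean of the 5 other tissues 2994 genes were higher and 1306 lower in brain by mRNA, and 3536 and 734 by footprint. Against retina 1885 were higher and 3924 lower by mRNA, and 1747 and 1776 by footprint.

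Among the genes named, 3 were called in opposite directions in brain and retina by mRNA, with a called difference. The brain change minus the retina change was 9.43 for Itpka, 6.38 for Vxn and -9.67 for Kcne2. Kcne2 is a gene of the choroid plexus, and choroid plexus genes differed between the 2 P42 brain RNA-seq libraries. Their part in the result was not tested.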

How the results depend on the processing

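Under the other settings tried, each count of called genes kept its size within 1.5 times except as follows. Median-of-ratios scaling gave 3243 genes higher and 2217 lower in brain by mRNA, 2975 higher and 2395 lower against retina by mRNA, and 1884 higher and 1423 lower against the other tissues by footprint. Centring on the median gave 3062 and 2550 by mRNA in brain and 1720 and 1640 by footprint against the other tissues. Both take out the shift of the median gene by construction. A pseudocount of 4 gave 1414 genes lower by footprint in brain, 2287 higher and 462 lower against the other tissues, and 1148 higher and 999 lower against retina. A filter of 5 TPM, which tests fewer genes, gave 415 lower against the other tissues by footprint, and 1160 higher and 1132 lower against retina. The cause of the pseudocount's effect was not tested.

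With 1 brain library left out, the lone library of its group being assumed to vary like the other groups, the mRNA counts ran from 1662 to 1736 higher and 5148 to 5230 lower in brain, 2952 to 3069 and 1282 to 1347 against the other tissues, and 1875 to 1892 and 3888 to 3917 against retina. The footprint counts ran from 2499 to 2868 and 1834 to 3158 in brain, 3205 to 4250 and 580 to 1085 against the other tissues, and 1490 to 1991 and 1358 to 2635 against retina.

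Of 360 gene changes named, 320 kept their direction and their side of the threshold under every alternative run. Changes of direction were limited to 3 genes that were not called by mRNA. Grin2b changed by 0.45 when centred, 0.58 by median-of-ratios and 0.022 without mitochondrial genes, Slc12a2 by 0.42 and 0.56 in the first pair of these, and Gria2 by 0.088 by median-of-ratios.

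Same-numbered replicates of the 2 stages deviated with correlations across genes of 0.016 by mRNA and -0.045 by footprint, so no pairing was seen across genes as a whole. The 7 heart genes differed from this by footprint, with 155 and 128 TPM in replicate 1 of E15.5 and P42 and 22.7 and 20.8 TPM in replicate 2. Whether same-numbered libraries were handled together was not tested. With the replicate number as a block, 1697 genes were higher and 5206 lower in brain by mRNA, and 2690 and 2355 by footprint, and the counts against the other tissues and retina stayed within 5 genes of those without the block. TPM keeps no read total, so what depth limits cannot be given per library. Low footprint levels, such as those below 1 TPM at E15.5, are the least certain.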
